A study of Homo sapiens with 41 samples.

Results

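Elongin A, the large subunit of the Elongin complex that acts on transcribing RNA polymerase II, was mapped on the chromatin of DLD1 cells, a human colon cancer cell line. The cells of the lists used here were fixed with formaldehyde and carried no knockdown and no drug treatment as far as the labels state. The 41 samples of the series include 7 that stand behind 3 deposited peak lists. These are 2 replicates of CUT&RUN with a goat antibody and 1 goat IgG control, 1 sample of CUT&RUN with a mouse antibody and 1 mouse IgG control, and 1 sample of Elongin A ChIP-seq with 1 input control. The 7 genes described here are the U1 small nuclear RNA (snRNA) genes RNU1-1, RNU1-2, RNU1-3 and RNU1-4, the variant U1 genes RNVU1-7 and RNVU1-18, and the U1 pseudogene RNU1-60P. They are 7 of 143 annotated U1 genes and pseudogenes, among 64486 annotated genes in all. They were selected on their peaks in these lists, that is on the presence, side and fold enrichment of a peak, so these are given as a description and were not tested. A gene was counted as occupied when any base of a peak lay within 1 kb of it. The goat antibody replicates share 1 list, and the values therefore have no replicate error.

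U1 snRNA is the RNA of the U1 small nuclear ribonucleoprotein, which recognises the start of an intron by pairing its own 5′ end with the 5′ splice site of the pre-mRNA. RNA polymerase II makes it from short genes without introns, which are driven by a proximal sequence element bound by the SNAPc complex and by a distal element farther upstream. Transcription runs past the end of the RNA, and the Integrator complex cuts the transcript near a short 3′ box. In the human genome U1 genes occur in many near-identical copies, which include true genes, variants and pseudogenes, so a short read from one copy may fit several places.

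The RNA-coding sequences are shown first because they bear on how far reads can be told apart. Capitals mark bases 1 to 11, which hold the part that pairs with the splice site. Sequences come from GRCh37, on the strand of each gene, and positions are counted from 1 at the 5′ end of the RNA. RNU1-1 lies at chr1:16840617-16840780 on the minus strand, RNVU1-7 at chr1:145969270-145969433 on the minus strand, and RNU1-60P at chr17:56736510-56736666 on the minus strand.
RNU1-1: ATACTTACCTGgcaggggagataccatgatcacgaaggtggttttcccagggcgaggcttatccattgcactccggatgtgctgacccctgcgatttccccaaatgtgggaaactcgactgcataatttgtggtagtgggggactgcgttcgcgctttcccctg
RNVU1-7: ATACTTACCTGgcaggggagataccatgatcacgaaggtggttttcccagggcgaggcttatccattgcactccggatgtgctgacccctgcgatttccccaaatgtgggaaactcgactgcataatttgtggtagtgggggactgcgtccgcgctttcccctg
RNU1-60P: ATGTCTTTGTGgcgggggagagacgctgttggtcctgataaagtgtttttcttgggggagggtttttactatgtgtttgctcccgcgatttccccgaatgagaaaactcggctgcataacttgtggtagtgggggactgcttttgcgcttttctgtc

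RNU1-2 (chr1:17222475-17222638, plus strand), RNU1-3 (chr1:16993280-16993443, minus strand), RNU1-4 (chr1:17067011-17067174, plus strand) and RNVU1-18 (chr1:149224058-149224221, minus strand) had the same 164 bases as RNU1-1. This RNA sequence occurred at 7 places in the genome, so no read wholly inside it points to 1 gene by its own bases. The reads were sequenced in pairs, and whether a mate in the flank placed such reads was not tested. RNVU1-7 differed from it at 1 base, T150C, and its sequence occurred at 2 places. RNU1-60P, 157 bp long, occurred once and matched RNU1-1 over 66.5% of aligned positions, with 33 substitutions, 16 missing bases and 9 inserted bases. Of its first 11 bases 6 differed, as A3G, C4T, T5C, A7T, C8T and C9G.

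The bases just before the RNA were compared next, since the proximal sequence element of human snRNA genes is found there. Each sequence below covers 50 bases from -80 to -31, and capitals mark the 18 bases that all 7 genes share at the same position. The window lies at chr1:16840811-16840860 for RNU1-1, at chr1:145969464-145969513 for RNVU1-7, at chr1:149224252-149224301 for RNVU1-18 and at chr17:56736697-56736746 for RNU1-60P, each on the minus strand, and RNU1-2, RNU1-3 and RNU1-4 have the sequence of RNU1-1.
RNU1-1: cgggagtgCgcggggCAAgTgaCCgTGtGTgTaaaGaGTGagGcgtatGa
RNVU1-7: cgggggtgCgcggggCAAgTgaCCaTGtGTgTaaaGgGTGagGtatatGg
RNVU1-18: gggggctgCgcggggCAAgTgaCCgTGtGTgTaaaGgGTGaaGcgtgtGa
RNU1-60P: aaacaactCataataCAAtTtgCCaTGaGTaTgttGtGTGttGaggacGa

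Over the whole 300 bp before the RNA the 7 genes shared 26 bases at the same position without gaps, of which 11 of 25 fell between -75 and -51 and 9 of 25 between -50 and -26. The count sets the genes side by side by position, so an inserted or missing base in 1 gene removes shared bases farther out. Without RNU1-60P the other 6 genes shared 65 of the 300 bases, 40 of them among the 50 from -80 to -31. Over the aligned 300 bp the identity to RNU1-1 was 95.7% for RNU1-2, 97.0% for RNU1-3 and RNU1-4, 82.8% for RNVU1-7, 80.4% for RNVU1-18 and 47.9% for RNU1-60P.

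Past the RNA, 4 genes held a match to the 3′ box, searched on the sense strand as GTTT, 0 to 3 further bases and AAANNNAGA within 50 bp of the 3′ end. The 50 bases after RNU1-1 (chr1:16840567-16840616), RNU1-2 (chr1:17222639-17222688), RNU1-3 (chr1:16993230-16993279) and RNVU1-18 (chr1:149224008-149224057) are given with the match in capitals.
RNU1-1: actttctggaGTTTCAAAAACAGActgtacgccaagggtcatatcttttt
RNU1-2: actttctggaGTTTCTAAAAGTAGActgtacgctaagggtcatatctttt
RNU1-3: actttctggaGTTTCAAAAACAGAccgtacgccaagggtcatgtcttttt
RNVU1-18: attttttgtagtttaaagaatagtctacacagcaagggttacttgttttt

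RNU1-4 had the same 50 bases as RNU1-3. In each of the 4 genes the match began at base 11 after the RNA. These 4 were also the 4 of 143 U1 genes with a match, against 50 of 64486 genes (0.0775%). No match in RNVU1-7, RNVU1-18 and RNU1-60P says only that these letters were not in the window. The octamer ATGCAAAT, bound by POU2F1, was found on either strand in 2.24% of all promoters (250 bp before to 50 bp after the start) and in none of the 7, and the core motif of the activator ZNF143 was found in 0.653% of promoters and in none of the 7. Here too, no match says only that these letters were not in the window.

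Of the 7 genes, 4 had a peak in the goat antibody list, in which 9.89% of all annotated genes did. In the mouse antibody list 4 had a peak, against 3.54% of all genes, and in the ChIP-seq list 4 had a peak, against 0.381%. They were the same 4 genes in every list, RNU1-1, RNU1-2, RNVU1-18 and RNU1-60P. RNU1-3, RNU1-4 and RNVU1-7 had no peak within 1 kb in any list. Because the choice of genes rested on these peaks, nothing is read from the distance of these counts to the background. Of all 1914 genes of the snRNA class, 2.09%, 1.2% and 1.15% had a peak in the goat, mouse and ChIP-seq lists.

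**Figure D1:**
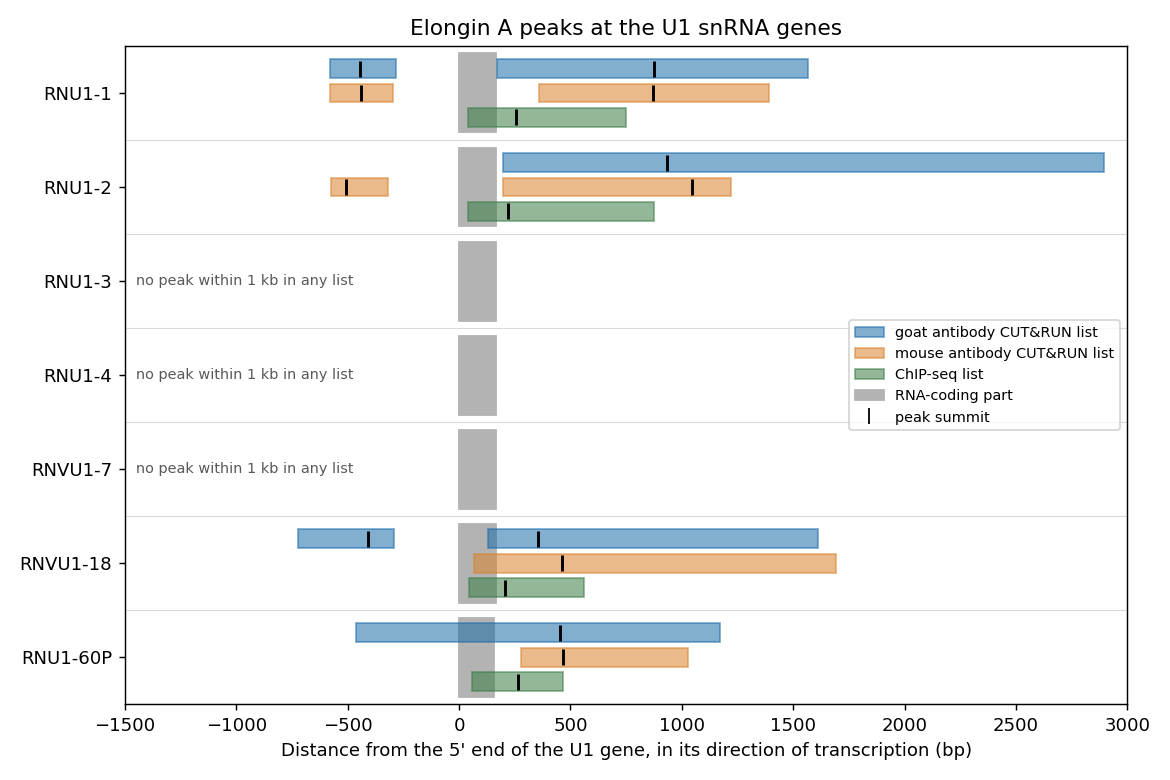
Peaks within 1 kb of each of the 7 U1 genes, drawn to scale by distance in bp from the 5′ end of the RNA in the direction of transcription, with a bar for the extent of each peak of the 3 lists, a tick for its summit and grey for the RNA-coding part. RNU1-3, RNU1-4 and RNVU1-7 are empty, the ChIP-seq summits lie 42 to 109 bp past the 3′ end, and 4 shorter CUT&RUN peaks lie upstream.

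RNU1-1 had 5 peaks over the 3 lists. With the goat antibody a peak of 1395 bp (chr1:16839216-16840610) began 6 bp past the 3′ end of the gene, had a fold enrichment over IgG of 17.5 and ranked 10 of 8720. A second goat antibody peak of 301 bp lay upstream (chr1:16841061-16841361), with a fold enrichment of 11.4 and rank 45. The sides were thus separated by the gene itself, with the stronger and longer peak past its end.

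With the mouse antibody the order of the sides at RNU1-1 was the other way round. The upstream peak of 285 bp (chr1:16841077-16841361) had a fold enrichment of 12.1, the highest of all 2338 peaks of that list, and the downstream peak of 1032 bp (chr1:16839392-16840423) had 4.73 and rank 805. The mouse and goat antibody upstream peaks reached to the same base, 16841361, and the summits of these lists were 4 bp apart upstream and 6 bp apart downstream. In the ChIP-seq list RNU1-1 had a single peak (chr1:16840033-16840739) of 707 bp over 75% of the gene and the region past it, with a fold enrichment over input of 29.3 and rank 4 of 186.

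RNU1-2, the other U1 gene of this cluster with peaks, lies in an intron of CROCC, a gene for a ciliary rootlet protein, on the same strand. Its goat antibody peak was the longest at any of the 7 genes, 2697 bp (chr1:17222673-17225369), and had a fold enrichment of 5.16, which ranked 2401. By the −log10 q-value, the peak caller's measure of evidence, it ranked 91. This peak was broad and low compared with that at RNU1-1.

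The mouse antibody gave RNU1-2 a downstream peak (chr1:17222673-17223694) of 1022 bp that began at the same base as the goat antibody peak and had a fold enrichment of 4.36, close to the median of 4.36 over that list. An upstream peak of 257 bp (chr1:17221902-17222158) had 5.01 and rank 597. In the ChIP-seq list the peak at RNU1-2 (chr1:17222513-17223349) had a fold enrichment of 27.2 and rank 8. RNU1-1 and RNU1-2 were therefore close in the ChIP-seq list and far apart in the goat antibody list.

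RNVU1-18, a variant gene with the RNA of RNU1-1 but its own flanks, overlapped no other annotated gene. With the goat antibody its downstream peak of 1483 bp (chr1:149222610-149224092) had a fold enrichment of 21.2, rank 5, and ranked 3 by q-value, and an upstream peak of 430 bp (chr1:149224515-149224944) had 6.25 and rank 961. The mouse antibody gave 1 peak (chr1:149222529-149224155) of 1627 bp with 6.98 and rank 57, and the ChIP-seq list 1 peak (chr1:149223661-149224176) of 516 bp with 19.2 and rank 27. The stretch past the 3′ end was occupied in every list, and the upstream side in the goat antibody list alone.

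RNU1-60P, named as a pseudogene, lies in an intron of TEX14, a gene for a protein of intercellular bridges in germ cells, and overlaps an exon of the noncoding gene ENSG00000290039, both on the same strand. Its goat antibody peak of 1637 bp (chr17:56735494-56737130) had a fold enrichment of 18 and rank 8, and covered the whole gene. The mouse antibody peak (chr17:56735640-56736387) had 10.9 and rank 3, and the ChIP-seq peak (chr17:56736199-56736607) had 11.2 and rank 84. The pseudogene was thus within the first 10 peaks of both CUT&RUN lists and lower in the ChIP-seq list than the other 3 occupied genes.

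**Figure D2:**
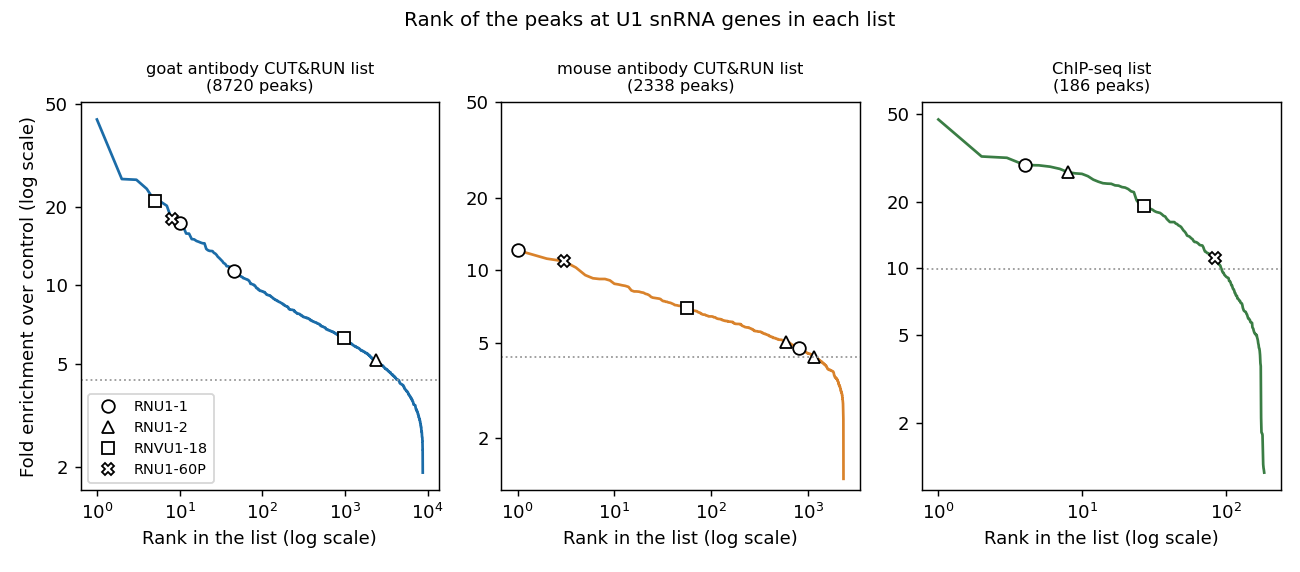
Fold enrichment over control (log scale) against rank (log scale) of all peaks of each list, with symbols for every peak within 1 kb of a described U1 gene and a dotted line at the list's median. RNU1-1 holds rank 1 in the mouse antibody list through its upstream peak, and RNU1-60P holds ranks 8, 3 and 84 in the goat, mouse and ChIP-seq lists.

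Taking the strongest peak of each of the 4 occupied genes, the median fold enrichment was 17.7 (5.16 to 21.2) in the goat antibody list, whose median over all peaks was 4.32. It was 8.93 (5.01 to 12.1) in the mouse antibody list, with a list median of 4.36, and 23.2 (11.2 to 29.3) in the ChIP-seq list, with a list median of 9.99. The lists were made with different controls and antibodies, so only ranks are set side by side. The order of the genes differed between the lists, since RNVU1-18 led the 4 in the goat antibody list and RNU1-1 in the mouse antibody and ChIP-seq lists. In the mouse antibody list RNU1-1 led through its upstream peak, whose summit lay nearer to the start of another gene, as given below. By q-value RNVU1-18 (rank 16) and RNU1-60P (rank 17) stood ahead of RNU1-1 (rank 21) in that list. With 4 genes and no replicate values, which neighbours in these orders differ beyond error cannot be told.

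By q-value the 4 genes took ranks 10, 91, 3 and 30 in the goat antibody list for RNU1-1, RNU1-2, RNVU1-18 and RNU1-60P, by the peak whose summit lies past the gene. In the mouse antibody list the downstream peak of RNU1-1 rose from rank 805 by fold enrichment to 129 by q-value, and its upstream peak moved from 1 to 21. RNU1-2 moved in the same way, with its downstream peak from 1171 to 172 and its upstream peak from 597 to 1215. By q-value the upstream peak stood ahead at RNU1-1 and the downstream peak at RNU1-2, so the side that led depended on the gene and on the measure.

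Peak widths also differed between the lists. At the 4 genes the median width was 1439 bp in the goat antibody list, 885 bp in the mouse antibody list and 611.5 bp in the ChIP-seq list, and the medians over all peaks were 362, 295 and 361 bp. Peaks of 1 kb or more made up 4 of 6, 3 of 6 and 0 of 4 at these genes, compared with 4.51%, 0.727% and 3.23% of the lists. The wide peaks had their summit past the gene, and the peaks wholly upstream were of 430 bp or less. The wide goat antibody peak at RNU1-60P ran from -464 to 1173 and so also over the gene and bases upstream of it.

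No summit lay inside a U1 gene of the 7. All 4 ChIP-seq summits lay downstream, at 91 bp past the 3′ end of RNU1-1, 57 bp for RNU1-2, 42 bp for RNVU1-18 and 109 bp for RNU1-60P. The downstream goat antibody summits lay farther out, at 711, 769, 192 and 297 bp past the 3′ end in the same order. The mouse antibody summits lay at 705, 883, 299 and 311 bp. In each gene the ChIP-seq summit was the nearest to the RNA, followed by both CUT&RUN summits.

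Each ChIP-seq peak overlapped the downstream CUT&RUN peaks and none of the upstream ones. The overlap with the goat antibody peak was 578 bp at RNU1-1, 677 bp at RNU1-2, 432 bp at RNVU1-18 and 409 bp at RNU1-60P, and the summits of the same pairs were 620, 712, 150 and 188 bp apart. Between the goat and mouse antibodies the downstream summits were 6, 114, 107 and 14 bp apart. The summits of the CUT&RUN lists were thus nearer to each other than to those of the ChIP-seq list at every gene. The part of the repeated RNA sequence in these positions was not tested.

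Where a list had peaks on both sides of a gene, the gap between them held the bases just before the RNA and the start of the gene. At RNU1-1 the gap ran from -280 to 170 with the goat antibody (450 bp) and from -296 to 357 with the mouse antibody (653 bp). At RNU1-2 it was 514 bp with the mouse antibody, and at RNVU1-18 422 bp with the goat antibody, from -293 to 129, where the downstream peak covered the last 35 bases of the gene. Of the 50 bp words (stretches of that length) in these gaps, 67.4%, 52.3%, 62.7% and 50.0% occurred more than once in the genome. In the same order the shares were 47.9%, 55.3%, 35.3% and 6.71% in the downstream peaks and 46.7%, 48.3%, 30.8% and 9.30% in the upstream peaks. At RNU1-1 with the mouse antibody the downstream peak thus held the larger share. A part of repeated words in the gaps was not tested. The upstream peak had 0.651 times the fold enrichment of the downstream peak at RNU1-1 with the goat antibody and 2.56 times with the mouse antibody, and the ratio was 1.15 at RNU1-2 and 0.295 at RNVU1-18. RNU1-60P had no list with separate peaks on both sides. Its goat antibody peak covered the gene, and its mouse antibody peak began 122 bp past the gene and covered none of it.

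The upstream peaks at RNU1-1 had another gene nearer by. Their summits lay in an exon of the noncoding gene ENSG00000261135, which runs in the opposite direction, at 84 bp (goat) and 80 bp (mouse) from its start, compared with 444 and 440 bp from the start of RNU1-1. Which of the pair these peaks belong to cannot be told apart from position alone. For the other 14 of the 16 peaks of the 4 genes the U1 gene had the nearest annotated start.

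Peaks just inside and outside the 1 kb limit were far from it. In the goat antibody list the farthest peak counted was that upstream of RNVU1-18, at 293 bp, and the nearest one not counted was 1881 bp from RNU1-1, with a fold enrichment of 6.70 and rank 647. In the mouse antibody list these distances were 316 bp and 8061 bp, both at RNU1-2. In the ChIP-seq list each counted peak touched its gene, and the nearest other peak lay 9164 bp from RNU1-2.

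The 3 genes without a peak were far from any. The nearest goat antibody peak was 21.6 kb from RNU1-3, 95.4 kb from RNU1-4 and 274.3 kb from RNVU1-7. In the mouse antibody list the distances were 52.9, 126.6 and 497.2 kb, and in the ChIP-seq list 152.5, 155.3 and 586.0 kb. The nearest ChIP-seq peaks of RNU1-3 and RNU1-4 were those at RNU1-1 and RNU1-2, on either side of them.

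These 3 genes were also those whose surroundings exist more than once in the genome. Every 50 bp and every 100 bp word of the 1 kb before RNU1-3, RNU1-4 and RNVU1-7, of the genes and of the 1 kb past them, taken every 10 bp, had another exact copy. RNU1-3 and RNU1-4 lay in a stretch of 7736 bp that was the same base for base in both, from 5045 bp before the RNA to 2527 bp past it. RNVU1-7 shared 4565 bp with RNVU1-9, from 1149 bp before to 3252 bp past the RNA. A read from within 1 kb of these genes would therefore match another place equally well.

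The occupied genes differed from this. At RNU1-1 35% of 100 bp words before the gene and 22% past it were repeated, and at RNU1-2 19% and 8%. RNVU1-18 and RNU1-60P had no repeated 100 bp word in either flank. With 50 bp words the shares were 66% and 51% at RNU1-1, 46% and 36% at RNU1-2, 15% and 1% at RNVU1-18, and 20% and 15% at RNU1-60P. RNU1-1 shared an unbroken stretch of 191 bp with RNU1-3, of 181 bp with RNU1-2 and of 167 bp with RNVU1-18.

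**Figure D3:**
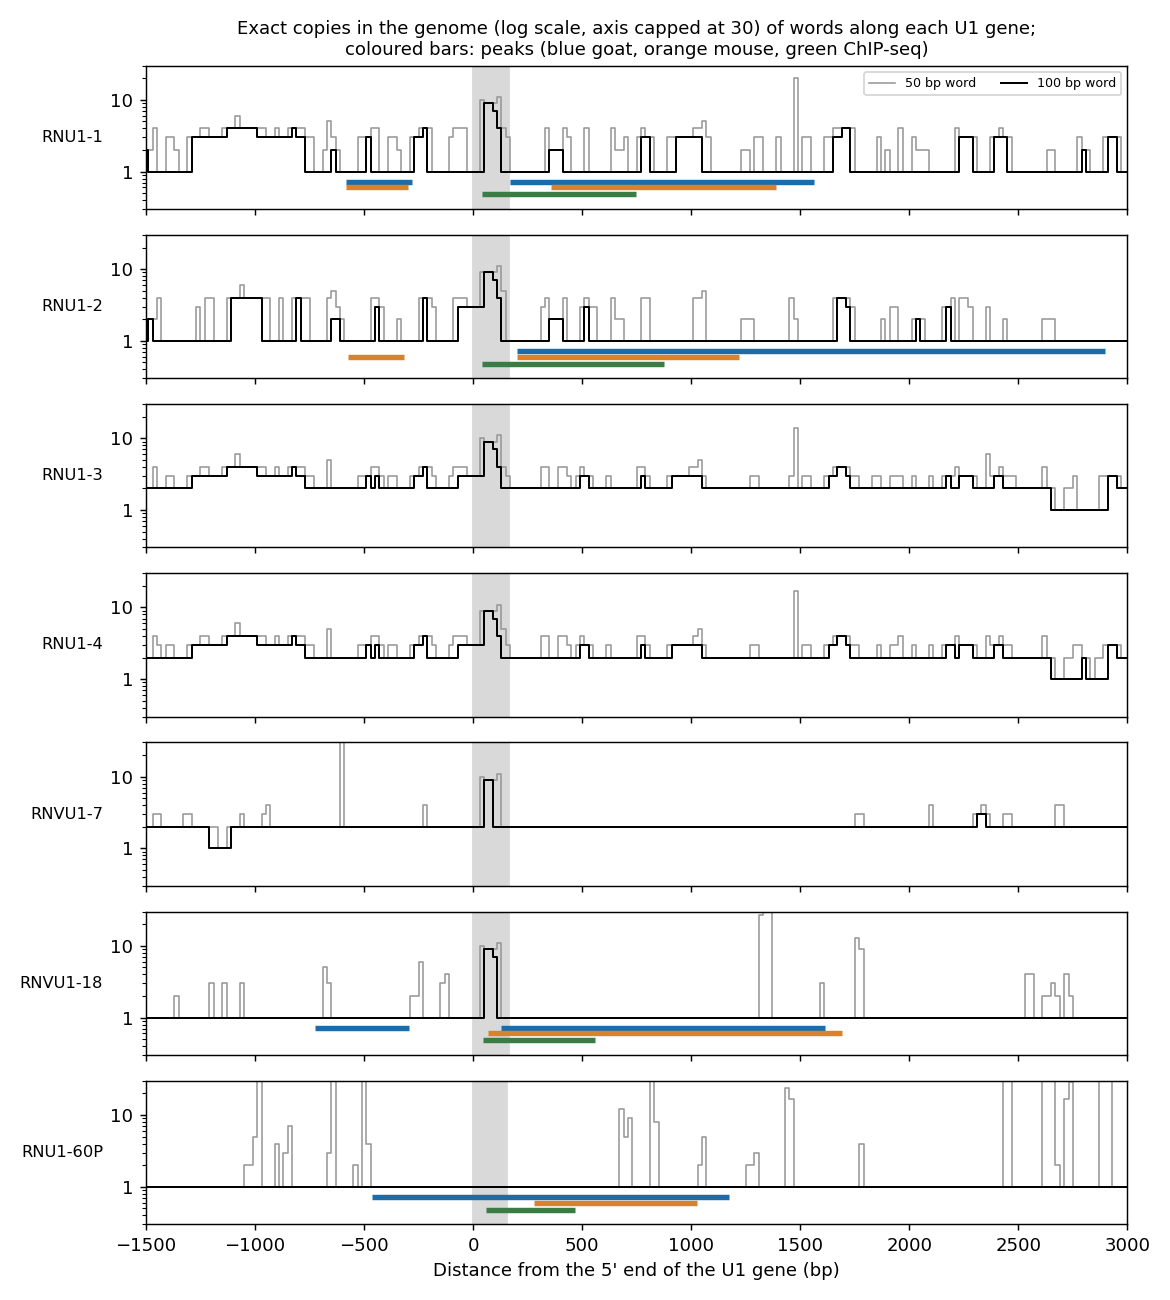
Number of exact copies in the genome (log scale, capped at 30) of 50 bp and 100 bp words along each U1 gene, by distance in bp from the 5′ end of the RNA, with the peaks of the 3 lists as coloured bars and the RNA-coding part in grey. At RNU1-3, RNU1-4 and RNVU1-7 no 100 bp word within 1 kb is at 1 copy. In the 1 kb flanks of RNVU1-18 and RNU1-60P every 100 bp word is at 1 copy.

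Longer alignments showed the same order. The best other match to the 1 kb before RNU1-1 had an identity of 98.9% and lay at RNU1-3, and that past it had 96.0%. For RNU1-2 the best matches had 96.3% (upstream) and 94.4% (downstream), for RNVU1-18 89.1% and 87.7%, and for RNU1-3, RNU1-4 and RNVU1-7 100% on each side. No other place matched over 90% of the 1 kb flanks of RNU1-60P. The study's methods state no filter on mapping quality, and how reads with several equal matches were placed was not tested.

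The summits themselves were mostly at sequence present once. Of the 16 peaks of the 4 genes, 13 had a summit whose central 32 bp occurred at 1 place. The upstream summits of RNU1-1 had 4 copies in both CUT&RUN lists, and the downstream mouse antibody summit of RNU1-2 had 5. With 100 bp around the summit all 16 were at 1 place. In the whole lists 3.18% (goat), 5.26% (mouse) and 4.30% (ChIP-seq) of summits had more than 1 copy of their 32 bp.

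Over all 143 annotated U1 genes, 12 had a peak in the goat antibody list (8.39%, Wilson 95% interval 4.87 to 14.1%), 8 in the mouse antibody list (5.59%, 2.86 to 10.7%) and 9 in the ChIP-seq list (6.29%, 3.35 to 11.5%). The 4 genes described above are part of each count. Of the other 136, 8, 4 and 5 had a peak. By the same rule 9.89%, 3.54% and 0.381% of all annotated genes had one. Most annotated U1 copies thus had no peak, as was so for genes in general. In the goat and mouse antibody lists the interval of the U1 share held the share of all genes. The ChIP-seq share was above that of all genes, with the 4 chosen genes in the count.

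Among these others RNVU1-6 and RNVU1-14 were the nearest to the 4 in rank. RNVU1-6 had fold enrichments of 10.7 (goat, rank 58), 6.26 (mouse, rank 124) and 25.2 (ChIP-seq, rank 12). RNVU1-14 had 11.7 (rank 42) with an upstream peak of 8.35, 9.19 (rank 7) and 16.0 (rank 45). Both are variant genes on chromosome 1, and both had a peak in each list.

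The remaining ones were lower or in fewer lists. RNU1-120P had 4.95, 4.85 and 11.6 in the goat, mouse and ChIP-seq lists. RNU1-122P had 4.44 in the goat and 6.39 in the ChIP-seq list, RNU1-28P had 8.75 in the goat and 3.43 in the mouse list, and RNVU1-8 had 10.5, RNU1-27P 4.23 and RNU1-58P 4.31 in the goat list only. RNU1-59P had a peak in the ChIP-seq list only, at 6.42. None of these pseudogenes ranked above RNU1-60P in either CUT&RUN list, and in the ChIP-seq list RNU1-120P did, at rank 78 against 84.

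The position past the gene recurred in this larger set. Of the 5 ChIP-seq summits at other U1 genes, 4 lay 22 to 160 bp past the 3′ end, and that at RNVU1-14 lay inside the gene, at base 119. The 8 downstream goat antibody summits lay 220 to 1107 bp past the 3′ end (median 288.5) and the 4 of the mouse antibody 271 to 1170 bp. The farthest were at RNU1-27P and RNU1-28P, whose goat antibody peaks lay 857 and 716 bp from the gene and which had no ChIP-seq peak. Whether another gene starts nearer to the peaks of this larger set was not checked. Upstream summits were found at RNVU1-14 with the goat antibody, at 431 bp, and at RNU1-120P with the mouse antibody, at 200 bp. The 7 and all gene lists were chosen with earlier results of these data known, so these values are given without a test.

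**Figure D4:**
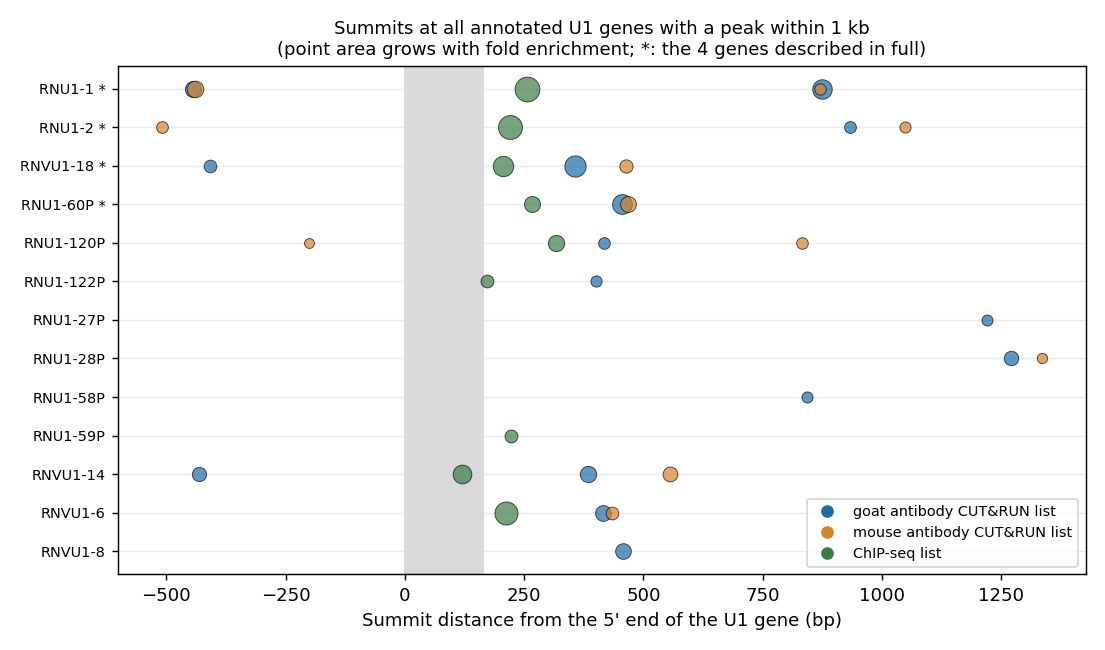
Distance in bp of each peak summit from the 5′ end of the RNA at all 13 annotated U1 genes with a peak within 1 kb in any list, coloured by list, with point area growing with fold enrichment and grey for the 164 bp of the RNA. ChIP-seq summits lie between base 119 and base 317, and CUT&RUN summits lie farther past the gene or upstream of it.

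Repeated flanks were counted over the same 143 genes, with words taken every 20 bp. Every 100 bp word of both 1 kb flanks was repeated at 12 genes, of which 0 had a peak in any list, 3 of them among the 7. Of 94 genes with no repeated 100 bp word, 5 had a peak, and of 19 with some but under 50% repeated, 6 had one. Of 18 with 50% or more but not all, 2 had a peak, RNU1-27P and RNU1-28P, each with 97% of words repeated. With 50 bp words 15 genes had every word repeated and 1 of them, RNU1-27P, had a peak. Most genes without repeated flanks thus had no peak either. At RNU1-3, RNU1-4 and RNVU1-7, repeated sequence and a lack of Elongin A cannot be told apart in these lists.

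**Figure D5:**
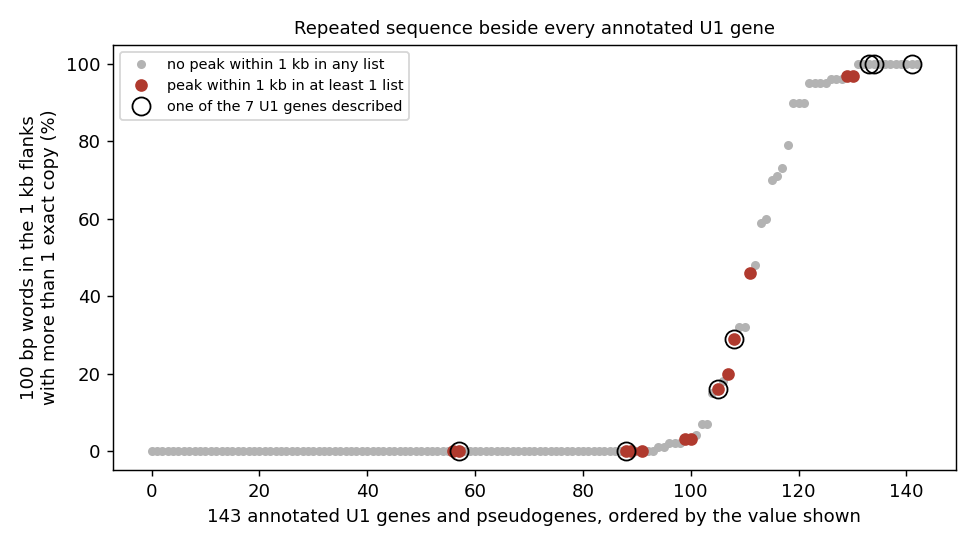
Share in percent of 100 bp words in the 1 kb flanks that have more than 1 exact copy, for each of the 143 annotated U1 genes in order of that share, with red for genes with a peak in any list and a ring for the 7 genes described. No gene at 100% has a peak, 3 of those are ringed, and most genes at 0% have no peak either.

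The protein genes of U1 biology were counted in the same way, as 53 genes in 8 groups. In the goat antibody list 21 had a peak (39.6%, against 21.7% of all protein-coding genes), in the mouse antibody list 4 (7.55%, against 7.79%) and in the ChIP-seq list 0 (against 0.783%). The shares in the mouse antibody and ChIP-seq lists were near the background.

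Of the U1-specific proteins, SNRPA, which binds a stem loop of the RNA, had a goat antibody peak of 8.90 at rank 136, and SNRNP70 and SNRPC had none. Of the 7 Sm proteins, which form a ring on the snRNA, 5 had a goat antibody peak, the strongest at SNRPB (6.57, rank 737), and 1 had a mouse antibody peak, SNRPG (5.14). For the SNAPc subunits, which bind the proximal element, SNAPC5 had 6.12 and 4.88 and SNAPC2 had 2.84 and 3.81 in the goat and mouse lists. All of these protein genes stood lower in the goat antibody list than RNU1-1, RNVU1-18 and RNU1-60P. SNRPA, SNRPB and SNAPC5 (rank 1064) stood higher than RNU1-2 at rank 2401, as did further Sm genes at ranks 1186 and 1259.

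Integrator subunits, which process the 3′ end, had a goat antibody peak at 6 of 14 genes, the strongest at INTS11, its endonuclease (5.03), and a mouse antibody peak at INTS9 (4.28). Of 6 other factors of snRNA promoters 4 had a goat antibody peak, the strongest at TBP (4.31). Of 11 export and assembly factors 3 did, the strongest at GEMIN5 (5.02), which recognises snRNAs. None of the 4 genes of the little elongation complex, which acts on snRNA transcription, and none of ELOA, ELOB and ELOC, the Elongin subunits, had a peak in any list.

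Other spliceosomal snRNAs were set beside U1. In the goat, mouse and ChIP-seq lists 8, 7 and 8 of 31 U5 genes and pseudogenes had a peak (25.8%, 22.6% and 25.8%). At U2 3, 3 and 2 of 70 did (4.29%, 4.29% and 2.86%), and at U4 3, 2 and 2 of 89 (3.37%, 2.25% and 2.25%). Of 1321 U6 genes, which are transcribed by RNA polymerase III, 8, 3 and 0 did (0.606%, 0.227% and 0%). The shares over all annotated genes were 9.89%, 3.54% and 0.381%. Below them lay U2, U4 and U6 in the goat antibody list, U4 and U6 in the mouse antibody list, and U6 in the ChIP-seq list. The share at U1, with 12, 8 and 9 of 143, lay between those of U5 and U2, with the 4 chosen genes in the count. Among the other 136 U1 genes 8, 4 and 5 had a peak. Their share in the mouse antibody list was below that of U2. A peak near neighbouring genes counted for each of them. RNU5E-1 and RNU5E-4P shared a peak in the goat and mouse antibody lists, and RNU4-1 and RNU4-2 shared a peak in every list. How many of each family's annotated copies are transcribed was not measured here.

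In all, 82 annotated genes had a peak in each of the 3 lists, the 4 U1 genes included. The 5 genes outside the snRNA class nearest to the U1 genes in pattern were found from the percentile of their strongest peak in each list. The U1 genes had median percentiles of 99.9, 98.8 and 91.1. The nearest was ENSG00000270103, a noncoding gene with fold enrichments of 16.9, 8.15 and 24.1, followed by ENSG00000285646, whose goat antibody peak also lies at RNU5E-1, by LINC00910, by ENSG00000287190, which has the peak of RNVU1-6, and by a U3 small nucleolar RNA gene with 12.2, 8.65 and 28.2. No entry of the snRNA or snoRNA class lay within 1 kb of the goat antibody peak of ENSG00000270103 or LINC00910. Small RNA genes listed under another class, or absent from this annotation, were not searched for. The U3 peaks were also the nearest ones to RNU1-60P outside its own, at 26.8 kb in the goat, 27.1 kb in the mouse and 27.4 kb in the ChIP-seq list.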

How the data were processed

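Elongin A was mapped in DLD1 cells by CUT&RUN and ChIP-seq. Bowtie2 alignment of paired reads to hg19, duplicate removal and MACS2 peak calling against IgG or input were done by the authors. They deposited 1 list for the 2 goat antibody replicates, and how these were combined is not stated. The deposited fold enrichment of a peak is a ratio over the control background, and the deposited −log10 q-value (p-value adjusted by the peak caller) measures its evidence. The deposited score and −log10 p-value columns were not used. The depth is unknown, since the lists hold no read totals, and Wilson intervals (95%) cover counting error only.

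Positions count from 1. The annotation was GENCODE release 44, lifted to GRCh37 (the same build as hg19), which also gave the sequences. A gene had a peak when any base of it lay within 1 kb, and peaks were ranked by fold enrichment. Exact copies of words of 32, 50 and 100 bp were counted on both strands, every 10 bp along a gene. A word takes no account of the mate of a paired read. Similar places were found with blastn 2.17.0 (word size 28, identity of at least 80%). The counting was tested on simulated data, where 2000 of 2000 peaks and 50 of 50 words were placed correctly. The 7 genes and all gene lists were chosen with earlier results of these data known, so no test was run on them. Genes named were the 7, every other U1 gene with a peak, the strongest of each protein group and those without a peak where 5 or fewer, any gene with a start nearer to a summit, and the 5 most alike in percentile. Alternatives changed the distance, the q-value and fold thresholds, the ranking, the merging of peaks and the word length.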

Additional observations from a re-analysis of the deposited data

How the results depend on the processing

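Of 81 alternatives over 16 results, 77 left the value within 1.5 times that reported. With peaks ranked by −log10 q-value, the best rank at the 7 genes was 3 in place of 5 in the goat antibody list and 16 in place of 1 in the mouse antibody list. With 100 bp centred on the summit in place of 32 bp, 0 peaks of the goat antibody list (1 as reported) and 0 of the mouse antibody list (2 as reported) had a repeated summit. The cause of the changes in rank was not tested, and a longer word cannot have more exact copies than the shorter word at its centre. No paired analysis was possible because the deposited lists hold no column for a replicate, and leaving out a goat antibody replicate could not be run for the same reason. The lists hold only peaks past the caller's threshold, so a gene without a peak has no value here, and without read depth no limit can be set on its signal.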
